A study of Mus musculus with 23 samples.

Results

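The collagen chain genes are the genes whose symbol is Col, a number, a and a number, and they were taken from the table by symbol alone. The table of 14535 gene symbols held 35 of them, and 32 had a mean FPKM (fragments per length of transcript and per total of fragments) of 1 or more over the tumors and were tested. Col13a1, Col23a1 and Col28a1 lay below that mean. The samples were 23 primary mammary tumors of mice of mixed strain, all labelled Brca1-deficient, with 1 RNA-seq library each and no tumor-free or Brca1-intact sample. In the mouse models of the study, a Cre recombinase under the MMTV promoter, which is active in mammary epithelium, removes floxed Brca1 alleles (Brca1 fl/fl), and some mice also carried a floxed Trp53 allele (Trp53 fl/+). The labels do not say which tumors carried the second deletion, give no age and do not say whether tumors came from separate mice. The study gives genotypes of tumors outside the labels, and these were not used here. In the study, every tumor classed as mesenchymal-like came from mice with intact Trp53 alleles, and X9387T is named as such a tumor. X9387T is also among the tumors low in Epcam described below. Genotype may thus run with those tumors, and its part in results that rest on them was not tested. All 23 tumors form the single group that the labels give, and what the p-values take as error is the spread among these tumors. Tumors are named by the titles, in which 19 numbers occur, 4 of them for 2 tumors (such as X1310T1 and X1310T2).

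Collagens are proteins of 3 chains wound into a helix, and each chain has its own gene. Types I, III and V form the fibrils of connective tissue, type IV forms the sheet of the basement membrane, type VI forms beaded filaments around cells, and type XVII spans the membrane of basal epithelial cells at hemidesmosomes. Mrc2 encodes an endocytic receptor (also called Endo180 or uPARAP) that takes up collagen and collagen fragments. Dcn encodes decorin, a small proteoglycan of fibroblasts that binds collagen fibrils. The questions put to the data were at what level each chain was present, how it varied from tumor to tumor, and how it related to Mrc2, to Dcn and to the other chains.

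The tumors were whole pieces, so each value adds up cancer cells, fibroblasts, vessel cells and immune cells, and fewer cells of a type and less RNA per cell cannot be told apart. All levels are log2(FPKM + 1). The depth of the libraries is unknown. Brca1 ranged from 0, listed in 3 tumors, to 2.26, and with no Brca1-intact sample this level checks nothing about the deletion. Short non-coding RNAs made up 72.7% of the summed FPKM in X149T2, against a median of 9.44% over all tumors. The epithelial adhesion gene Epcam was low in 4 tumors: 2.02 in X738T, 0 in X520T, 0.55 in X9387T and 3.10 in X92T, against 6.18 or more elsewhere. The 10 epithelial markers summed to between 59.6 and 321 FPKM in these 4 tumors, where the median of the 23 was 2918 FPKM. Results that rest on these 4 tumors are given with and without them.

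The fibrillar chains of types I and III were the most abundant collagens, and they varied widely among the tumors. Col1a1, the major chain of type I collagen (chromosome 11, 94936224 to 94953042 of GRCm38), had a lowest level of 5.78, a median of 8.15 and a highest level of 10.22. Col1a2, its partner in the type I trimer, had 5.28, 7.79 and 9.88. Col3a1, the only chain of type III collagen, had 5.0, 7.35 and 10.01. Tumor X370T was lowest for each of these 3 chains, while X92T was highest for Col1a1 and Col3a1 and X738T for Col1a2. The next chains by median were Col4a1 at 6.89, Col18a1 at 6.53, Col4a2 at 6.49, Col6a1 at 5.85 and Col6a2 at 5.66. The SD over tumors was 0.77 for Col4a1, 0.82 for Col4a2, 1.19 for Col18a1, 1.45 for Col6a2 and 1.51 for Col6a1. Neighbours in this order lay closer together than their spread over tumors.

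All chains together took between 0.134% of the summed FPKM in X2265T and 1.51% in X92T, with a median of 0.355%. These totals include the short non-coding RNAs. With those left out of the total, the range was 0.197% to 1.60% in the same tumors, with a median of 0.401%, and X149T2 went from 0.168% to 0.616%. Of the collagen FPKM, type I took a median of 29.5%, type IV 13.6%, types II, IX and XI together 12.4%, type III 8.84%, type VI 7.92%, type XVIII 5.18% and type V 4.69%. These shares were far from fixed. Type VI took 35.5% of the collagen FPKM in X9387T and 3.47% in X370T. Types II, IX and XI took 45.4% in X370T and 0.00257% in X520T.

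**Figure D1:**
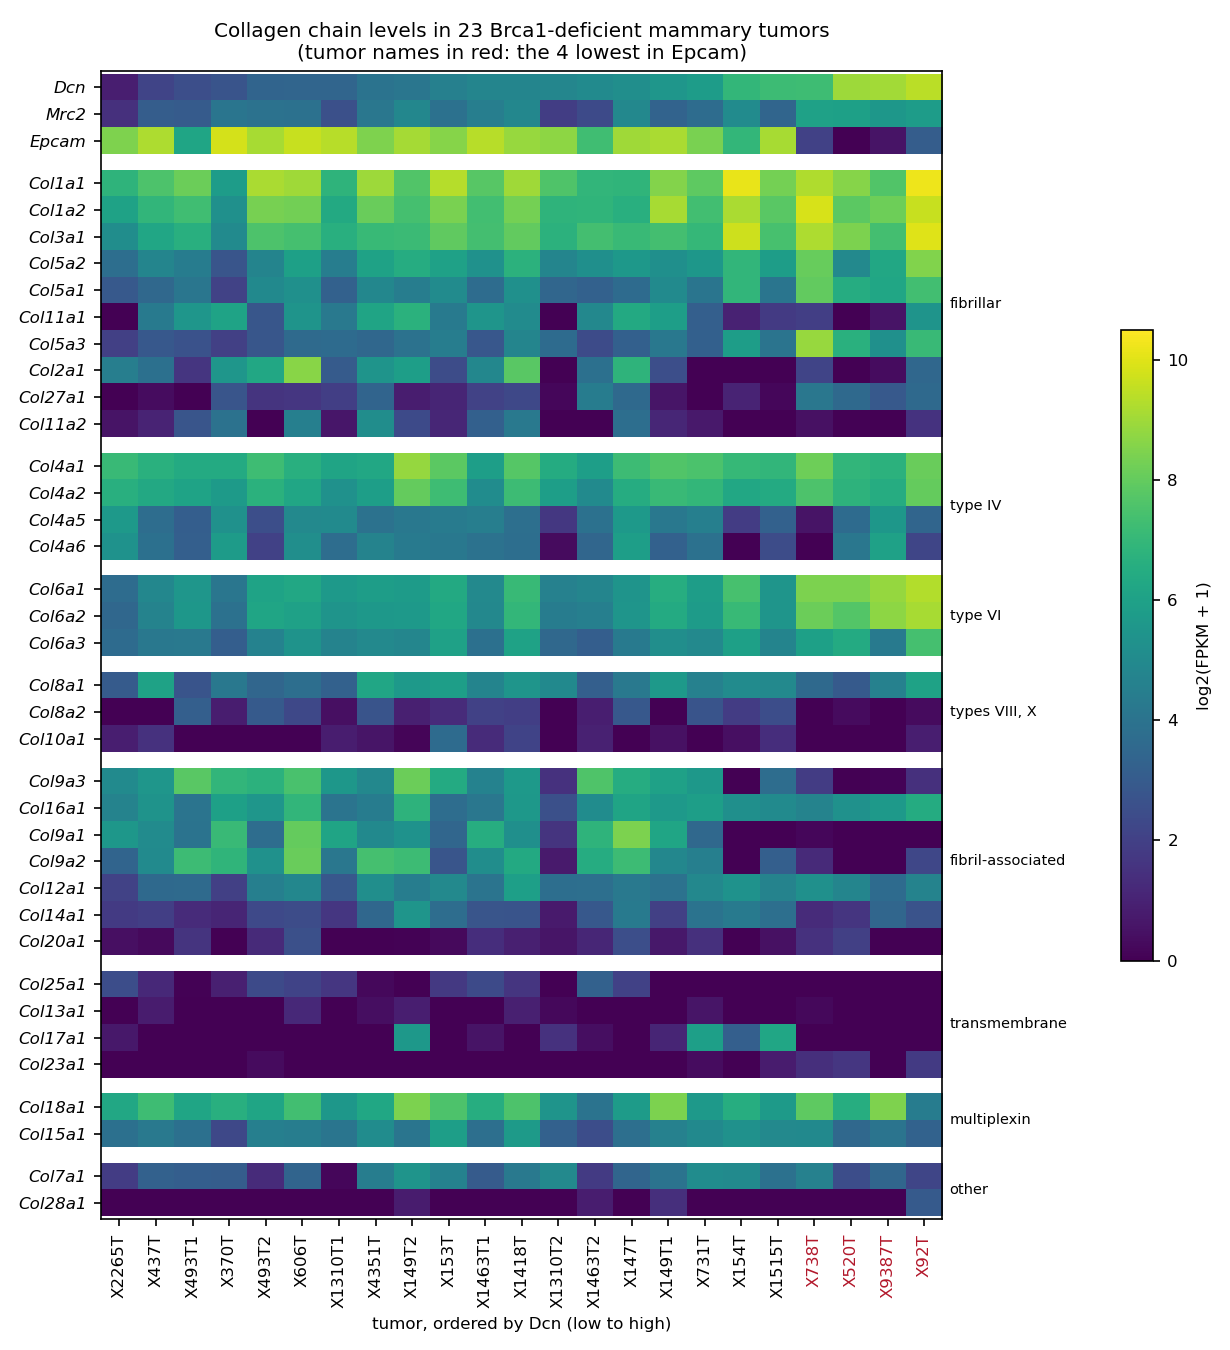
Heat map of log2(FPKM + 1) for Dcn, Mrc2, Epcam and the 35 collagen chain genes (rows, by chain class) in the 23 tumors (columns, ordered by Dcn from low to high; names in red are the 4 tumors lowest in Epcam). Col1a1, with a median of 8.15, and Col1a2, with 7.79, are high in nearly every tumor, while the type IX chains are dark and the type VI chains bright at the right edge.

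The minor fibrillar chains of type V, which join type I fibrils and limit their width, spanned more of the scale than type I. Col5a1 had a lowest level of 2.05, a median of 4.46 and a highest level of 7.96. Col5a2 had 2.76, 5.57 and 8.51, and Col5a3 had 1.98, 3.66 and 8.88. Tumor X370T was again the lowest for all 3 chains, and X738T was highest for Col5a1 and Col5a3. In X738T, Col5a3 stood at 8.88, while the next tumor, X92T, had 7.13. Col27a1, another fibrillar chain, had a median of 1.66 and a highest level of 4.40.

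The most abundant fibrillar chains rose together. In a regression of every tested gene on Col1a1 (limma, two-sided moderated test, Benjamini-Hochberg adjustment over all genes), 9 of 31 other chains were called at an adjusted p under 0.05, all rising. Over all genes, 0.523% were called as rising and 0.0166% as falling. The slope was 0.92 ± 0.09 (SE) log2 units of Col1a2 per log2 unit of Col1a1 (adjusted p = 4.69e-06), 0.89 ± 0.12 for Col3a1 (adjusted p = 0.000459), 1.10 ± 0.15 for Col5a1 (adjusted p = 0.000459) and 0.84 ± 0.16 for Col5a2 (adjusted p = 0.0118). Col5a3 lay at the threshold, with a slope of 0.99 ± 0.23 (adjusted p = 0.0497). The 3 type VI chains had slopes of 0.81 to 0.93, with adjusted p between 0.000459 and 0.0229, and Col12a1, a chain that coats fibrils, had 0.70 ± 0.11 (adjusted p = 0.00246). The type IV chains were not called: Col4a1 had 0.30 ± 0.13 (adjusted p = 0.271), Col4a2 0.37 ± 0.13 (adjusted p = 0.188), Col4a5 -0.65 ± 0.20 (adjusted p = 0.128) and Col4a6 -0.82 ± 0.26 (adjusted p = 0.153). Without X370T, the tumor lowest in Col1a1, 5 chains were called.

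A minority of the genes that process and bind fibrillar collagen rose with Col1a1. Of 13 tested collagen-binding proteoglycans and fibril regulators, 4 rose and none fell, with a median slope over the list of 0.55 beside 0.03 over all genes. They included Sparc, a secreted collagen-binding glycoprotein, at 0.57 ± 0.09 (adjusted p = 0.00198), and Bgn, the proteoglycan biglycan, at 0.55 ± 0.11 (adjusted p = 0.0183). Of 10 tested genes for procollagen cleavage and crosslinking, 2 rose: Loxl1, which crosslinks fibers, at 0.90 ± 0.15 (adjusted p = 0.00246), and Adamts2, which removes the amino-terminal propeptide, at 0.60 ± 0.11 (adjusted p = 0.0109). Of 19 tested genes for folding and secretion, 1 rose: P4ha3, a prolyl 4-hydroxylase subunit, at 0.80 ± 0.13 (adjusted p = 0.00246). None of the 10 fibroblast markers was called, with a median slope over the list of 0.51 and Lum at 0.77 ± 0.19 (adjusted p = 0.0676). None of the 9 macrophage markers was called either, with a median slope of 0.97. Of 9 endothelial markers, 2 rose, Cdh5 at 0.75 ± 0.14 (adjusted p = 0.0118) and Tie1 at 0.63 ± 0.12 (adjusted p = 0.0117). Their list had a median slope of 0.51. Without the 4 tumors low in Epcam, 1 fibroblast marker and 0 endothelial markers rose, and the median slope was 0.55 for both of these lists. The part of cell makeup in these slopes was not tested.

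By Pearson's r over the 23 tumors, given here and below as a description, the genes most like Col1a1 were Col1a2 at 0.911, Col6a3 at 0.841, Serpinf1 at 0.840, Col3a1 at 0.839 and Col5a1 at 0.832. The FPKM of Col1a1 was between 0.648 and 2.02 times that of Col1a2, with a median of 1.53. The low end was tumor X738T and the high end X154T. The chains of the type I trimer thus stayed within a narrow ratio, while Col5a1 and Col5a2 ran from 0.234 in X149T2 to 3.09 in X520T, with r = 0.815.

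The window upstream of Col3a1, a chain that rose with Mrc2, Dcn and Col1a1, is shown for a match to TATAAA. The bases come from the RefSeq promoter set on GRCm38.p6 (chr1:45311418-45311537, plus strand, the 120 bases before the start of the gene), 5′ to 3′, with a match to TATAAA in capitals. The motifs searched here and below, on both strands, were CCAAT, known as the CCAAT box, then TATAAA, the core of many TATA boxes, and last GGGCGG, known as the GC box. The genes shown were chosen after their values were seen.
Col3a1: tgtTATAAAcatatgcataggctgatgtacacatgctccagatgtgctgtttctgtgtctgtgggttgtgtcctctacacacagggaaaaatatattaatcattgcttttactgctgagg
The match begins 117 bases before the start, and 6.34% of all 32851 promoter windows of this length hold TATAAA on either strand. Whether the match acts as a TATA box, or has a part in the slopes of Col3a1, was not tested. CCAAT, held by 21.3% of windows, and GGGCGG, held by 26.5%, were not in this window.

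Of the type VI chains, Col6a1 and Col6a2 had nearly the same profile over the tumors, and Col6a3 departed from it. Col6a1 had a lowest level of 3.70, in X2265T, a median of 5.85 and a highest level of 9.30, in X92T. Col6a2 had 3.52, 5.66 and 9.14, with the same lowest and highest tumors, and Col6a3, the longest chain of the trimer, had 3.13, 4.73 and 7.42. The 4 highest Col6a1 levels were those of the 4 tumors low in Epcam, 8.44 in X738T, 8.44 in X520T, 8.85 in X9387T and 9.30 in X92T, and the next tumor, X154T, had 7.44. Col6a3 did not share this gap: X9387T had 4.30, below the median of the chain.

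Col6a1 and Col6a2 were the most alike pair of all the chain pairs examined, with r = 0.994 over 23 tumors, and each tumor had between 0.949 and 1.67 times as much FPKM of Col6a1 as of Col6a2. The slope of Col6a2 on Col6a1 was 0.96 ± 0.04 (adjusted p = 3.92e-15), and that of Col6a3 was 0.59 ± 0.09 (adjusted p = 0.000177). The ratio of Col6a1 to Col6a3 had a median of 2.16 but reached 24.7 in X9387T. After Col6a2, the genes most like Col6a1 were Col5a1 at 0.935, Col5a3 at 0.885, Mxra8 at 0.884 and Ppic at 0.882. Both genes lie on chromosome 10 on the minus strand, Col6a2 at 76595762 to 76623630 and Col6a1 at 76708792 to 76726168, with 85161 bases between them.

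The windows before the starts of Col6a1 and Col6a2 are shown because these chains had nearly the same profile over the tumors. They come from the same RefSeq set, chr10:76726169-76726288 and chr10:76623631-76623750, both on the minus strand, 5′ to 3′. The window of Col6a1 ends 124 bases before the RefSeq start, since an annotated exon fills the stretch between.
Col6a1: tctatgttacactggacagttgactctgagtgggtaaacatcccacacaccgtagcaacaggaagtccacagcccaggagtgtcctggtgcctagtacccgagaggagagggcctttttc
Col6a2: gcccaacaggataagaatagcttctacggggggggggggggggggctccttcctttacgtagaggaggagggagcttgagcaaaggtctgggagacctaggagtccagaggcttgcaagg
None of the 3 motifs was in either window, so no letter is in capitals. The GC content was 53.3% for Col6a1 and 60.0% for Col6a2.

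In the regression on Col6a1, 9 of 31 other chains rose and 2 fell, where 3.68% of all genes rose and 3.28% fell. Besides its partners, the rising chains were Col5a1 at 0.93 ± 0.08 (adjusted p = 3.37e-08), Col5a3 at 1.01 ± 0.11 (adjusted p = 6.67e-06), Col5a2 at 0.64 ± 0.12 (adjusted p = 0.00102), Col3a1 at 0.65 ± 0.09 (adjusted p = 0.000108), Col1a2 at 0.61 ± 0.09 (adjusted p = 0.000217), Col1a1 at 0.52 ± 0.11 (adjusted p = 0.00384) and Col12a1 at 0.38 ± 0.11 (adjusted p = 0.035). The falling chains were Col9a1 at -1.22 ± 0.29 (adjusted p = 0.00806) and Col9a3 at -1.08 ± 0.27 (adjusted p = 0.0147). Col4a1 had 0.23 ± 0.10 (adjusted p = 0.16) and Col4a2 0.30 ± 0.10 (adjusted p = 0.0525). Without the 4 tumors low in Epcam, 10 chains rose and none fell, so Col9a1 at -0.67 and Col9a3 at -0.30 were no longer called (adjusted p = 1.0 for each).

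Part of the genes that fold, process, bind or cleave collagen rose with Col6a1. Of the 19 tested folding and secretion genes 7 rose, of the 10 for procollagen cleavage and crosslinking 6 rose, of the 13 collagen-binding genes 6 rose, and of the 10 collagen-cleaving proteases 4 rose, and none of these fell. Examples were Loxl1 at 0.74 ± 0.09 (adjusted p = 2.39e-05), Mmp2, a gelatinase, at 0.82 ± 0.12 (adjusted p = 0.000111), and Pcolce, which speeds removal of the carboxy-terminal propeptide, at 0.78 ± 0.12 (adjusted p = 0.000152). All 10 epithelial markers fell with Col6a1, among them Epcam at -1.55 ± 0.25 (adjusted p = 0.000275), and 4 of 10 fibroblast markers and 2 of 9 macrophage markers rose. These counts rest in large part on the 4 tumors low in Epcam. Without them 0 of the 10 epithelial markers fell, and of all genes 26 rose and 1 fell. Rising there were 0 of 19 folding and secretion genes, 3 of 10 cleavage and crosslinking genes, 1 of 13 collagen-binding genes and 1 of 10 proteases. The median slope of the epithelial list was -0.14 there, beside -1.16 with all tumors, and of the macrophage list 0.34 beside 0.56. Medians of the other lists were no smaller than with all tumors. They were 0.30 beside 0.23 for folding and secretion, 0.69 beside 0.47 for cleavage and crosslinking, and 0.66 beside 0.27 for collagen-binding genes. Proteases had 0.31 beside 0.26 and fibroblast markers 0.75 beside 0.22.

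**Figure D2:**
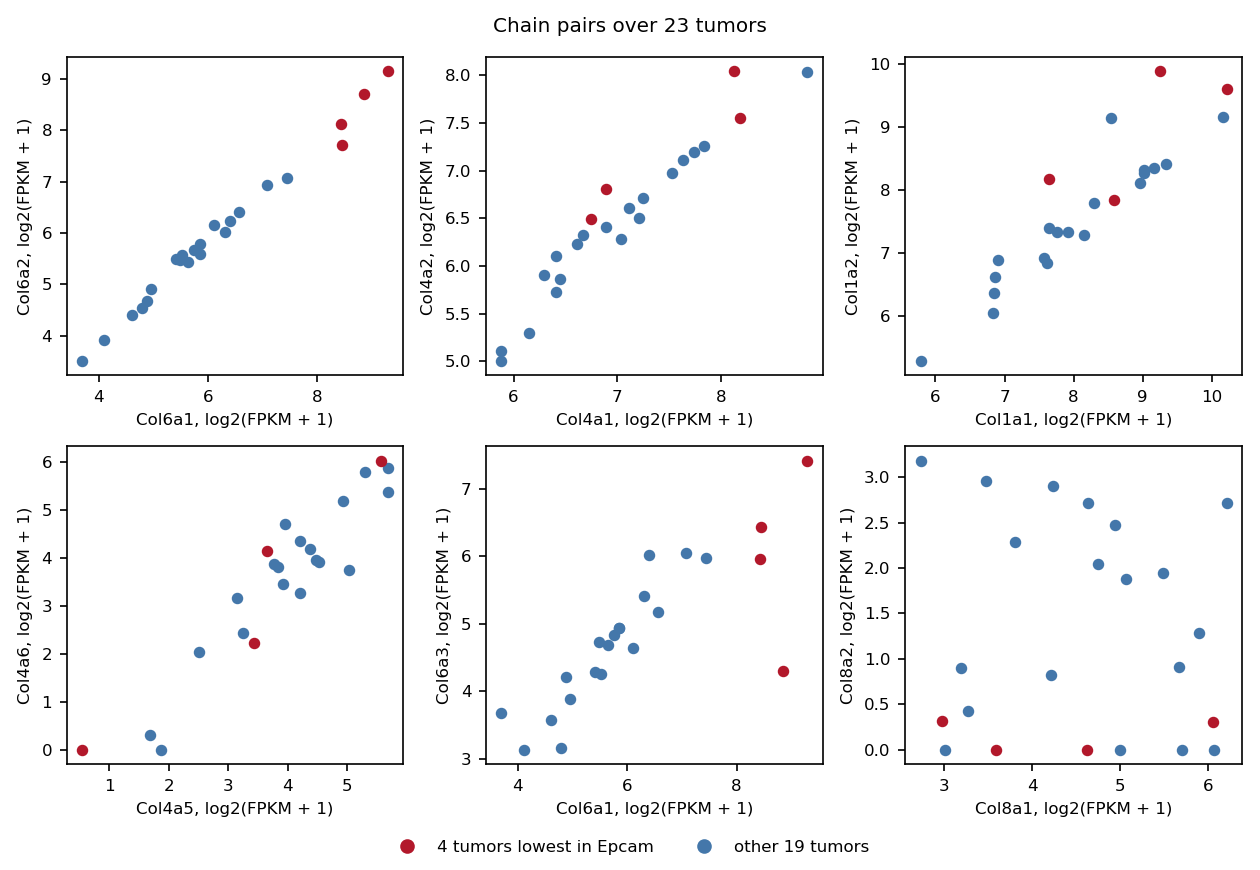
Scatter of 6 chain pairs over the 23 tumors, both axes in log2(FPKM + 1), with the 4 tumors lowest in Epcam in red and the other 19 in blue. Col6a1 and Col6a2 (r = 0.994) and Col4a1 and Col4a2 (r = 0.963) lie close to a line, Col6a3 leaves it in X9387T, and Col8a1 and Col8a2 (r = -0.07) form no line.

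The basement membrane chains Col4a1 and Col4a2 were the steadiest of the abundant collagens. Col4a1 had a lowest level of 5.88, a median of 6.89 and a highest level of 8.83, and Col4a2 had 5.01, 6.49 and 8.04. Tumor X1463T2 was lowest for both. The highest Col4a1 level was in X149T2 and the highest Col4a2 level in X92T. Of the 4 tumors low in Epcam, X738T with 8.18 and X92T with 8.12 came next below X149T2 in Col4a1, while X520T with 6.89 and X9387T with 6.74 lay at the median and just below it.

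In the regression on Col4a1, Col4a2 was the single chain called, at 1.03 ± 0.09 (adjusted p = 8.16e-08). Over all genes only 3 rose, 0.0249%, and 0% fell: besides Col4a2 these were Cd109 and Nid2, and they were also the genes most like Col4a1 after Col4a2 (r = 0.963), at 0.763 for Cd109 and 0.761 for Nid2, a basement membrane linker protein. Ybx3 at 0.719 and Tpbg at 0.688 came next. At an unadjusted p under 0.05, 15 chains had a slope above 0 and none below, where 3.88% of all genes were above and 2.47% below, and these included slopes of 0.96 ± 0.28 for Col5a2 (adjusted p = 0.443) and 0.85 ± 0.23 for Col6a3 (adjusted p = 0.414). The endothelial markers Pecam1 at 0.07 ± 0.28 (adjusted p = 0.994) and Kdr at 0.13 ± 0.19 (adjusted p = 0.963) were not called, nor was any other of the 9 endothelial or 10 pericyte and smooth muscle markers. The FPKM of Col4a1 was between 1.06 and 1.86 times that of Col4a2. On chromosome 8 these genes start on opposite strands, Col4a1 at 11198423 to 11312826 on the minus strand and Col4a2 at 11312805 to 11449287 on the plus strand, and they share 22 bases. No source used here says whether the libraries kept strand, so reads in the shared bases cannot be assigned.

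The other type IV pair, Col4a5 and Col4a6, whose products occur in epithelial and smooth muscle basement membranes, had a profile of its own. Col4a5 had a lowest level of 0.54, a median of 3.95 and a highest level of 5.69, and Col4a6 had 0, 3.87 and 6.02, with 2 tumors listed at 0. Their r was 0.938, and of 12040 genes Col4a6 was the one most like Col4a5. Tumors X738T, X154T and X1310T2 were low for both, with 0.54, 1.87 and 1.69 for Col4a5. Against Col4a1 the slopes were -0.34 ± 0.34 for Col4a5 and -0.41 ± 0.45 for Col4a6 (adjusted p = 0.935 and 0.945).

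These X-linked genes lie head to head, Col4a6 at 141165403 to 141474076 on the minus strand and Col4a5 at 141475385 to 141689234 on the plus strand, with 1308 bases between their starts. The windows of both are shown because the genes share this stretch, chrX:141475265-141475384 for Col4a5 on the plus strand and chrX:141474077-141474196 for Col4a6 on the minus strand, each 5′ to 3′ on its own strand, with a match to GGGCGG on the opposite strand in capitals.
Col4a5: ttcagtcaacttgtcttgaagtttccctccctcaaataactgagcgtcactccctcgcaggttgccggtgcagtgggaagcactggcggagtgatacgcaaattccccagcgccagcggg
Col4a6: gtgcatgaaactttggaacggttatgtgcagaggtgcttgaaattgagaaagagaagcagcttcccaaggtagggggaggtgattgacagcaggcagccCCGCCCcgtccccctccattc
The match before Col4a6 begins 21 bases from its start. No match to the 3 motifs was in the window of Col4a5, which ends 34 bases before the RefSeq start.

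The chains of cartilage collagen, types II, IX and XI, were present in most tumors and varied widely, with SDs over tumors of 2.84 for Col9a1, 2.65 for Col9a2, 2.63 for Col9a3 and 2.29 for Col11a1. Type II forms cartilage fibrils, type IX coats them and type XI forms their core, and these genes are also expressed outside cartilage. Col9a3 had a lowest level of 0, listed in 2 tumors, a median of 5.56 and a highest level of 8.13. Col9a1 had 0 in 5 tumors, a median of 5.0 and a highest level of 8.41, and Col9a2 had 0 in 3 tumors, a median of 4.85 and a highest level of 8.11. Col2a1 had 0 in 5 tumors, a median of 3.52 and a highest level of 8.65, in X606T. Col11a1 had 0 in 3 tumors, a median of 4.34 and a highest level of 6.71, and Col11a2 0 in 5 tumors, a median of 1.03 and a highest level of 5.13. Tumors X154T, X520T and X9387T were at or close to 0 for all 3 type IX chains, and X606T, X147T, X370T and X1463T2 had 6.49 or more of Col9a1 and Col9a3.

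The type IX chains were alike: r was 0.898 between Col9a2 and Col9a3, 0.841 between Col9a1 and Col9a2 and 0.822 between Col9a1 and Col9a3. Col2a1 had r = 0.742 with Col9a1, and Col11a1 had 0.730 with Col11a2. The gene most like Col9a3 was Sox10, a transcription factor of neural crest, glia and mammary epithelium, at r = 0.901, with Shisa2 next at 0.900 and Mia, a secreted protein first known from melanoma and cartilage, at 0.886. These genes lie outside the rule for named genes and were chosen after their values were seen. Sox10 ran from 0.06 in X92T to 8.80 in X493T2, and it was 0.11 in X154T, 0.38 in X520T and 1.37 in X9387T. Of 6 tested cartilage and bone markers, 1 was called in the regression on Dcn, the bone factor Runx2 rising at 0.23 (adjusted p = 0.0054). Acan, which encodes the main cartilage proteoglycan, had a median of 0.47, was listed at 0 in 10 tumors and reached 5.06 in X9387T and 4.83 in X370T. Comp, another cartilage matrix protein, had a median of 0.58, was listed at 0 in 8 tumors and reached 7.78 in X1310T1, 7.46 in X1463T1, 6.82 in X147T, 6.27 in X606T, 5.52 in X1463T2 and 5.02 in X370T. These 6 tumors had 6.11 or more of Col9a1, while X9387T, the highest in Acan, was listed at 0 for it. The part of cartilage-like cells in the levels of these chains was not tested.

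The window before Col9a1 is shown as that of the chain with the lowest slope on Dcn. It comes from the same set, chr1:24177490-24177609 on the plus strand, 5′ to 3′, and held none of the 3 motifs.
Col9a1: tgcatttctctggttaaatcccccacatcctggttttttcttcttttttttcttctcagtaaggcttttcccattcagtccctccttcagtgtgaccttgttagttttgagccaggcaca

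Mrc2 had a lowest level of 1.44, in X2265T, a median of 3.97 and a highest level of 5.99, in X738T. Dcn had 0.89, in X2265T, 4.78 and 9.41, in X92T. The 4 tumors low in Epcam held the 4 highest levels of both: 5.99 in X738T, 5.98 in X520T, 5.54 in X9387T and 5.82 in X92T for Mrc2, and 7.22, 8.94, 9.05 and 9.41 for Dcn. The relation between the genes had r = 0.693 (permutation p = 0.0002, adjusted p = 0.001 over 5 relations) and rho = 0.583 (permutation p = 0.00411). With X92T and X9387T left out, whose Dcn lay farthest from its median, r was 0.612. With the 4 tumors low in Epcam left out it was 0.413 (adjusted p = 0.394).

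With Mrc2, the fibrillar chains of types III and V and the type VI chains rose. Of 32 chains, 7 were called as rising and none as falling, where 1.16% of all genes rose and 0.93% fell. The largest slopes were 0.98 ± 0.19 for Col5a3 (adjusted p = 0.00955), 0.95 ± 0.15 for Col6a1 (adjusted p = 0.00176), 0.91 ± 0.14 for Col6a2 (adjusted p = 0.00176), 0.88 ± 0.16 for Col5a1 (adjusted p = 0.00683) and 0.66 ± 0.16 for Col5a2 (adjusted p = 0.0282). Col3a1 had 0.64 ± 0.14 (adjusted p = 0.0183) and Col6a3 0.56 ± 0.14 (adjusted p = 0.0293). The type I chains were not called, with 0.44 ± 0.16 for Col1a1 (adjusted p = 0.18) and 0.52 ± 0.15 for Col1a2 (adjusted p = 0.0645). Col4a1 had 0.27 ± 0.11 (adjusted p = 0.263), Col4a2 0.32 ± 0.12 (adjusted p = 0.178), Col4a5 -0.17 ± 0.21 (adjusted p = 0.788) and Col4a6 -0.06 ± 0.27 (adjusted p = 0.96). The lowest slopes, -0.90 ± 0.41 for Col9a1 (adjusted p = 0.318), -0.90 ± 0.37 for Col9a3 (adjusted p = 0.256), -0.52 ± 0.40 for Col9a2 (adjusted p = 0.647), -0.32 ± 0.17 for Col25a1 (adjusted p = 0.426) and -0.17 for Col4a5, were not called. At an unadjusted p under 0.05, 14 chains had a slope above 0 and 2 below 0, where 7.62% of all genes were above and 5.88% below. Without the 4 tumors low in Epcam no chain and no gene at all was called, and the slopes of the 7 chains lay between 0.45 and 0.58 there. With X738T alone or X92T alone left out, 4 chains were called. Col6a3 was not called with 1 tumor per title number (adjusted p = 0.0816) or without the 2 tumors most extreme in Mrc2 (adjusted p = 0.0544), and in both of these settings Col9a3 fell, at -1.33 (adjusted p = 0.0276) and -1.66 (adjusted p = 0.012). The fibrillar chain Col27a1, not called with all tumors at 0.65 ± 0.20 (adjusted p = 0.0833), rose with 1 tumor per title number, at 0.90 (adjusted p = 0.00412).

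With Dcn, fitted in the same 23 tumors, chains of types I, III, V and VI rose and the type IX chains fell. Of 32 chains, 8 rose and 3 fell, where 3.29% of all genes rose and 5.49% fell. The rising chains were Col5a3 at 0.59 ± 0.10 (adjusted p = 0.000273), Col6a1 at 0.55 ± 0.08 (adjusted p = 6.88e-05), Col6a2 at 0.52 ± 0.08 (adjusted p = 9.02e-05), Col5a1 at 0.48 ± 0.09 (adjusted p = 0.00145), Col3a1 at 0.40 ± 0.07 (adjusted p = 0.000574), Col5a2 at 0.37 ± 0.09 (adjusted p = 0.00721), Col1a2 at 0.31 ± 0.08 (adjusted p = 0.0182) and Col6a3 at 0.28 ± 0.08 (adjusted p = 0.0298). The falling chains were Col9a1 at -0.90 ± 0.18 (adjusted p = 0.00137), Col9a3 at -0.86 ± 0.16 (adjusted p = 0.000806) and Col9a2 at -0.75 ± 0.18 (adjusted p = 0.00835), with Col2a1 at -0.61 ± 0.20 (adjusted p = 0.0656) and Col11a1 at -0.32 ± 0.19 (adjusted p = 0.341) next. Col1a1 had 0.23 ± 0.09 (adjusted p = 0.119). Col4a1 had 0.09 ± 0.07 (adjusted p = 0.457), Col4a2 0.13 ± 0.07 (adjusted p = 0.299), Col4a5 -0.16 ± 0.11 (adjusted p = 0.44) and Col4a6 -0.22 ± 0.15 (adjusted p = 0.405). Col1a2, called on Dcn, was not called on Mrc2, and whether its slopes differ between the fits was not tested. Without the 4 tumors low in Epcam, Col3a1 was the single chain still called, at 0.47 (adjusted p = 0.0236), and the slopes no longer called included 0.34 for Col1a2 and 0.42 for Col5a2, no smaller than with all tumors, 0.32 for Col6a1, and -0.69 for Col9a1, -0.58 for Col9a3 and -0.51 for Col9a2.

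**Figure D3:**
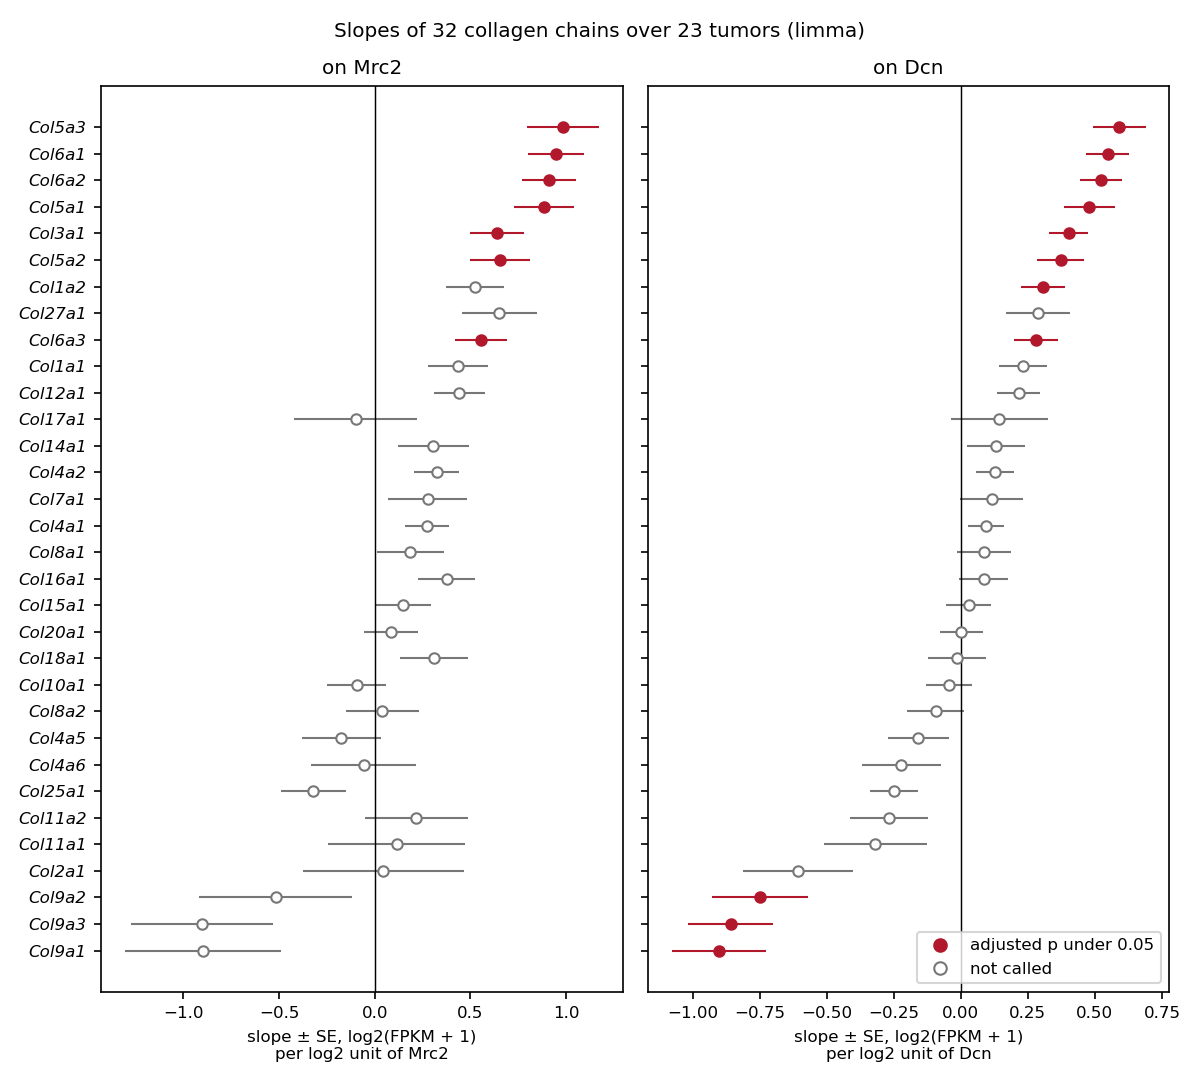
Slopes ± SE of the 32 tested chains on Mrc2 (left) and on Dcn (right), in log2(FPKM + 1) per log2 unit, ordered by the slope on Dcn, with filled red points for an adjusted p under 0.05. Col5a3 and the type VI chains Col6a1 and Col6a2 lead both panels, and the type IX chains are lowest in both and called on Dcn only.

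In a model holding both genes, the slope on Mrc2 was called for none of the 32 chains by limma, where 0.0166% of all genes rose and 0% fell. At an unadjusted p under 0.05, 11 chains had a slope above 0 on Mrc2 and none below, where 8.80% of all genes were above and 2.68% below. The largest slopes on Mrc2 were 1.52 ± 0.41 for Col2a1 (adjusted p = 0.202, the lowest of any chain), 1.05 ± 0.29 for Col11a2 (adjusted p = 0.223) and 0.98 ± 0.44 for Col11a1 (adjusted p = 0.406). The slopes of these chains on Dcn in the same model were below 0. Col6a1 had 0.53 ± 0.17 and Col6a2 0.52 ± 0.16 (adjusted p = 0.278 for each), Col5a1 0.57 ± 0.20 (adjusted p = 0.349), Col3a1 0.28 ± 0.17 (adjusted p = 0.503) and Col1a1 0.29 ± 0.22 (adjusted p = 0.576). The slope on Dcn in that model rose for 2 chains and fell for 5, where 1.34% of all genes rose and 3.84% fell. Col6a1 had 0.34 ± 0.09 (adjusted p = 0.0361) and Col6a2 0.32 ± 0.09 (adjusted p = 0.0446). The falling chains were Col2a1 at -1.20 ± 0.23 (adjusted p = 0.00623), Col9a1 at -1.06 ± 0.24 (adjusted p = 0.0159), Col9a2 at -1.05 ± 0.24 (adjusted p = 0.0149), Col9a3 at -0.97 ± 0.22 (adjusted p = 0.0148) and Col11a2 at -0.68 ± 0.17 (adjusted p = 0.02). Without X1310T2, a tumor with 4.81 of Dcn and 1.92 of Mrc2, 1 chain was called, and with 1 tumor per title number none was.

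Whether the basement membrane chain related to Mrc2 or Dcn unlike the fibrillar chain was tested on the log2 difference of Col4a1 minus Col1a1. It had r = -0.19 with Mrc2 (permutation p = 0.37, adjusted p = 0.463) and rho = -0.24 (permutation p = 0.282), and r = -0.29 with Dcn (permutation p = 0.174, adjusted p = 0.294) and rho = -0.16 (permutation p = 0.455). With the 2 tumors left out whose predictor lay farthest from its median, r was -0.08 for Mrc2 and -0.29 for Dcn. A difference between these chains in their relation to Mrc2 or Dcn was thus not detected in 23 tumors.

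**Figure D4:**
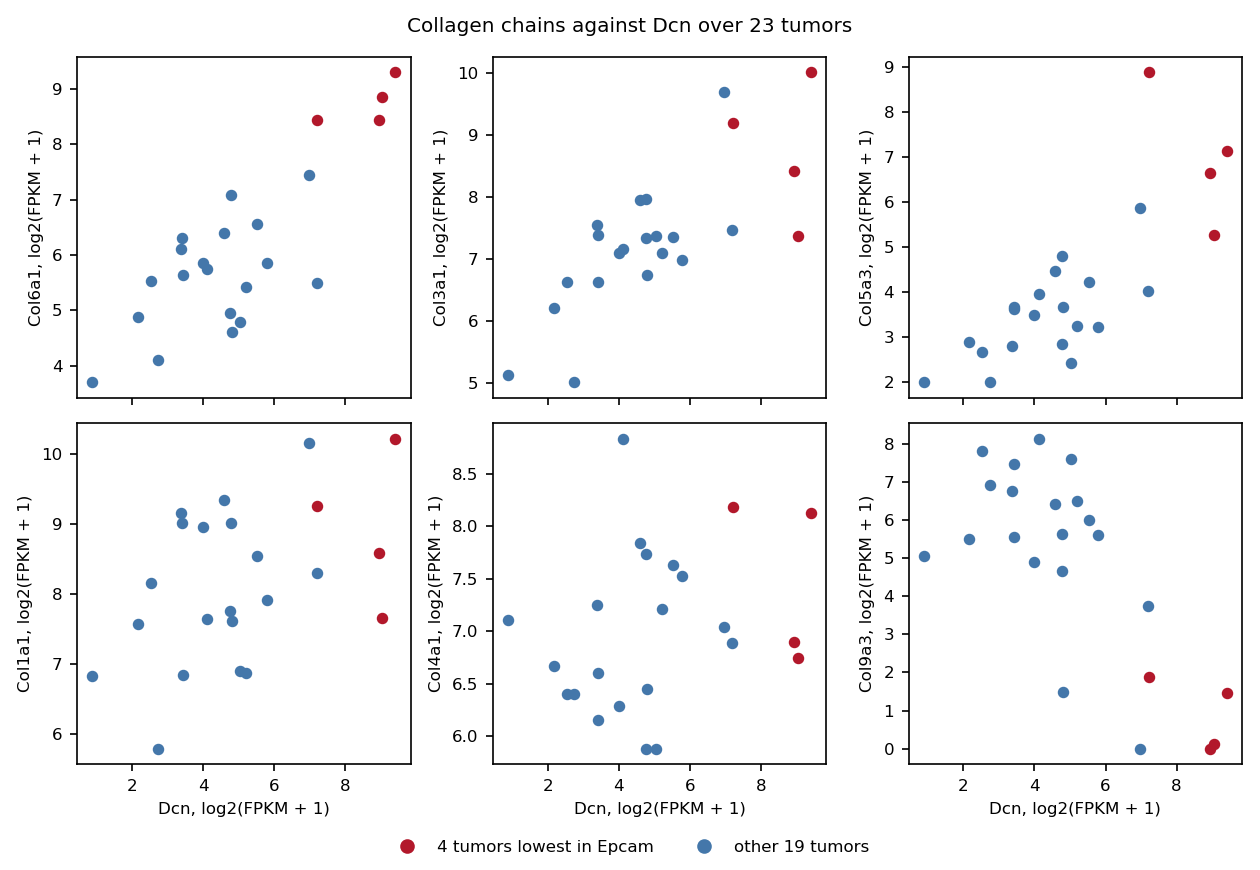
Plots of 6 chains (y axes, log2(FPKM + 1)) against Dcn (x axis, log2(FPKM + 1)) in the 23 tumors, with the 4 tumors lowest in Epcam in red and the other 19 in blue. The red points are the 4 highest for Col6a1, from 8.44 to 9.30, lie between 6.74 and 8.18 for Col4a1, and are at 1.88 or less for Col9a3.

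Some genes that handle collagen were called on Mrc2 and Dcn alongside the chains, and most were not. Of the 10 tested genes for procollagen cleavage and crosslinking, 5 rose on Mrc2 and 4 on Dcn, with none falling. They included Pcolce, at 1.01 ± 0.11 on Mrc2 (adjusted p = 3.42e-05) and 0.45 ± 0.09 on Dcn (adjusted p = 0.00247), and it was the gene most like Mrc2 of all those tested, at r = 0.883. Of 19 folding and secretion genes, 4 rose on Mrc2 and 3 on Dcn. P3h1, which hydroxylates a proline of fibrillar chains, had 0.72 ± 0.11 on Mrc2 (adjusted p = 0.00176). Of 10 collagen-cleaving proteases, 2 rose on Mrc2, and on Dcn 5 rose and 1 fell, with Mmp2 at 0.89 ± 0.16 on Mrc2 (adjusted p = 0.00683). Of the tested collagen receptors, none was called on Mrc2, while on Dcn Ddr2 rose at 0.38 ± 0.12 (adjusted p = 0.0447) and Ddr1, the family member of epithelia, fell at -0.33 ± 0.08 (adjusted p = 0.00486). Of the collagen-binding proteoglycans and fibril regulators, 4 of 13 rose on Mrc2, Dcn itself among them, and 6 of 12 on Dcn, with none falling. With the 4 tumors low in Epcam left out, 0 genes of these lists were called on Mrc2. On Dcn 3 of the 12 collagen-binding genes and 1 of the 10 cleavage and crosslinking genes rose there, and none of the folding genes, proteases or receptors was called. The median slopes on Mrc2 there were 0.40 for cleavage and crosslinking, 0.27 for folding and 0.31 for proteases. With all tumors they were 0.48, 0.29 and 0.32.

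Markers of other cell types moved with the same predictors. Of the 10 epithelial markers, 8 fell with Mrc2 and 9 with Dcn, Epcam at -1.40 ± 0.37 (adjusted p = 0.0465) and -0.97 ± 0.18 (adjusted p = 0.000841). Of 10 fibroblast markers, 3 rose with Mrc2 and 4 with Dcn, among them Pdgfra at 0.89 ± 0.19 (adjusted p = 0.0168) and 0.52 ± 0.11 (adjusted p = 0.00199). In the tumors other than the 4 low in Epcam, none of either list was called on Mrc2, and on Dcn 6 of the fibroblast markers rose and 0 of the epithelial markers fell. No gene at all was called on Mrc2 there, so that count does not set the lists apart. The median slope on Mrc2 there was 0.59 for the fibroblast list, beside 0.26 with all tumors. For the epithelial list it was -0.07 beside -1.10. Summed over the list, the fibroblast markers had between 20.3 and 713 FPKM with a median of 187, and 625, 291, 283 and 390 FPKM in X738T, X520T, X9387T and X92T. None of the 9 macrophage markers was called on Mrc2 and 1 rose on Dcn, and the summed level of that list was 3007, 3138, 3338 and 1211 FPKM in the same 4 tumors, beside a median of 1073. Of 4 tested Schwann cell markers, 2 fell with Dcn. They were Sox10, also a gene of mammary epithelium, at -1.06 ± 0.14 (adjusted p = 3.87e-05), and Mbp at -0.32 (adjusted p = 0.0091). S100b had -0.25 ± 0.10 (adjusted p = 0.13), and Ngfr went the other way at 0.35 ± 0.14 (adjusted p = 0.127). Without the 4 tumors low in Epcam 0 of this list fell, with a median slope of -0.26 beside -0.28 with all tumors. The part of these cell types in the slopes of the chains was not tested.

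Col17a1, the transmembrane collagen of hemidesmosomes, was listed at 0 in most tumors and high in a few. It was listed at 0 in 13 of 23 tumors, and reached 6.22 in X1515T, 5.92 in X731T and 5.58 in X149T2, with 3.19 in X154T and 1.5 or less elsewhere. The levels thus fell into separate clusters, so no pooled correlation is given for it, nor for Col17a1 minus Col1a1 with Mrc2 or Dcn. Over all 23 tumors, with the high ones included, its slope was -0.10 ± 0.32 on Mrc2 (adjusted p = 0.937) and 0.14 ± 0.18 on Dcn (adjusted p = 0.702), and it was not called on Col1a1 at 0.02 ± 0.37, on Col4a1 at 0.83 ± 0.51 or on Col6a1 at -0.17 ± 0.27 (adjusted p = 0.985, 0.871 and 0.767).

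The 3 tumors high in Col17a1 were the 3 highest for 2 of the 12 basal epithelial and hemidesmosome markers. Krt5, the basal keratin, had 9.41 in X1515T, 8.0 in X731T and 9.34 in X149T2, with 6.05 in X154T and a median of 1.44 over all 23. Trp63, the master regulator of basal epithelium, had 5.86, 4.53 and 4.71 in the same 3 tumors. For the other markers, at least 1 other tumor was as high or higher than 1 of the 3. Krt14, another basal keratin, had 9.81, 8.34 and 8.85, below or near the 9.84 of X154T, and Itgb4 had 6.26, 5.23 and 6.98, against 7.67 in X149T1. All 3 tumors lay above the median for 5 of the 12 markers. The 5 genes with the profile most like that of Col17a1 over the 23 tumors were Krtdap, Krt5, Gm5478, Trim29 and Dsc3, and since this likeness is set by the same 3 tumors, their high levels there follow from how they were chosen.

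Within the other 20 tumors, no chain was called in the regression on Col17a1 (limma), and at an unadjusted p under 0.05 none had a slope above 0 and 3 had one below, where 3.38% of all genes were above and 4.14% below. Of all genes, 0.365% rose and 0.0581% fell. The type VI chain Col6a1 had -0.09 ± 0.44 (adjusted p = 0.974), Col1a1 0.35 ± 0.33 (adjusted p = 0.846), Col3a1 0.40 ± 0.35 (adjusted p = 0.836), Col4a1 -0.03 ± 0.20 (adjusted p = 0.98) and Col4a6, the lowest adjusted p, -1.29 ± 0.43 (adjusted p = 0.346). Of 12 basal epithelial and hemidesmosome markers 2 rose, Krt5 at 1.93 ± 0.28 (adjusted p = 0.00181) and Krt17 at 2.22 ± 0.49 (adjusted p = 0.0461). Among these 20 tumors X154T was the highest in Col17a1, at 3.19, and in both keratins, at 6.05 and 9.88. Trp63 had 0.63 ± 0.27 (adjusted p = 0.58), and the integrin gene Itgb4, whose product binds type XVII collagen, 0.45 ± 0.46 (adjusted p = 0.857). Without the 4 tumors low in Epcam, 3 chains fell: Col4a6 at -1.44 (adjusted p = 0.0328), Col9a2 at -2.13 (adjusted p = 0.0124) and Col9a3 at -2.08 (adjusted p = 0.00243). In that fit X154T, the highest in Col17a1, was listed at 0 for each of these 3 chains. X1310T2, the next highest in Col17a1, had the next lowest levels, 0.31 for Col4a6, 0.74 for Col9a2 and 1.49 for Col9a3. Whether the falls hold without X154T and X1310T2 was not tested. Col7a1, the anchoring fibril chain that ties epithelial basement membrane to the tissue below, had a lowest level of 0.18, a median of 3.41 and a highest level of 5.45, in X149T2, and its slope on Col17a1 was 0.65 ± 0.34 (adjusted p = 0.717).

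**Figure D5:**
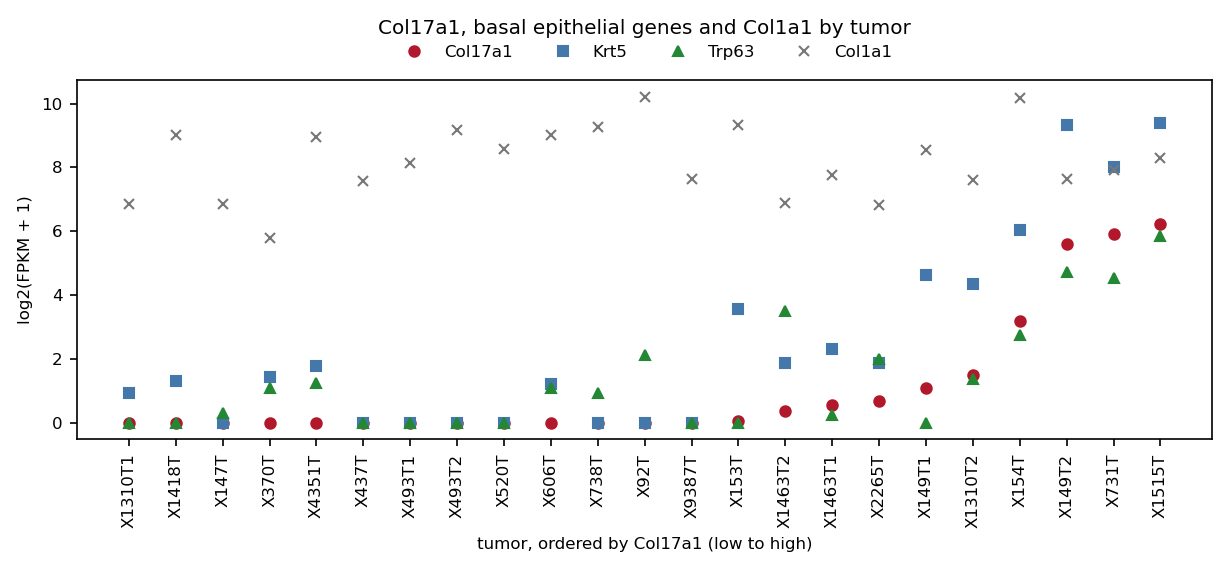
Levels of Col17a1, Krt5, Trp63 and Col1a1 (y axis, log2(FPKM + 1)) in each tumor (x axis, ordered by Col17a1 from low to high). X149T2, X731T and X1515T, at 5.58, 5.92 and 6.22 for Col17a1, stand apart at the right and are the highest in Krt5 and Trp63, while Col1a1 shows no such step.

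The remaining chains were not called on Mrc2 or Dcn. Col18a1, the multiplexin whose end fragment is endostatin, had a lowest level of 4.02, a median of 6.53 and a highest level of 8.47, with slopes of 0.31 ± 0.18 on Mrc2 (adjusted p = 0.5) and -0.02 ± 0.11 on Dcn (adjusted p = 0.957). X9387T had the highest level and X92T 4.40, though both were low in Epcam and high in Dcn. Col15a1, the other multiplexin, had a median of 4.10, Col12a1 4.45, Col14a1 2.70 and Col16a1 5.29, the last with a range of 2.55 to 6.90. Col8a1, a short chain of vessel walls, had a median of 4.63 and Col8a2 0.91, and r between them was -0.07 over the 23 tumors, so that Col8a2 ranked 6084 of 12040 genes by likeness to Col8a1. Col10a1, the hypertrophic cartilage chain, had a median of 0.44 and reached 3.68 in X153T. Col20a1 had a median of 0.58 and Col25a1 of 0.21. Among the 3 untested chains, Col13a1 was listed at 0 in 15 tumors with a highest level of 1.21, Col23a1 in 17 with 1.80, and Col28a1 in 19 with 2.97, in X92T.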

How the data were processed

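The authors deposited 1 table with the log2 of FPKM for 14535 gene symbols in 23 tumors. An offset of 1 before the log was read from the values, and an exact 0 may be a failed estimate. Per the labels, RNA was extracted with TRIzol from frozen tumors, and a NEBNext Ultra kit was used for the libraries. The submitters' processing notes name Trimmomatic 0.35, TopHat2 2.0.13, Cufflinks 2.2.1 and mm10. The study's methods name another TopHat release. FPKM keeps no counts, so the depth of the libraries is unknown and counting intervals could not be had.

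The 12041 genes whose mean FPKM was at least 1 were regressed on each predictor with limma 3.58.1 in R 4.3.3 (trend, two-sided moderated test, Benjamini-Hochberg adjustment over all genes, threshold 0.05). The pseudocount of 1 understates the change of low genes. Where the largest gap between tumors was at least 33.3% of the range, with 3 or more tumors on each side, the fit was made within the larger cluster. Relations between 2 measures used 100000 permutations, 2-sided. The fit was tested on simulated data. Alternatives were a pseudocount of 0.1, no filter, a minimum mean FPKM of 5, rescaling without 164 short non-coding RNA genes, Fos as a covariate, 1 tumor for each of the 19 title numbers, limma without trend, leaving out tumors and, chosen after seeing the data, the title number as a replicate block with the correlation estimated by duplicateCorrelation.

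The members and the 24 gene lists were chosen with earlier results of these data known. Named are the chains of types I, III, IV, V, VI and XVII in every fit, the 5 largest slopes in each direction on Mrc2 and Dcn, chains called in 1 of these fits, and the 5 genes most like Col1a1, Col4a1, Col6a1 and Col17a1. Positions are from GENCODE M21 on GRCm38, and promoter windows from RefSeq on GRCm38.p6. Protein sequences were not analysed here.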

Additional observations from a re-analysis of the deposited data

How the results depend on the processing

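The 4 tumors lowest in Epcam were the setting that mattered most. Without them, 0 chains were called on Mrc2, 1 on Dcn and 1 on Dcn with Mrc2 in the model, 3 chains (all falling) were called on Col17a1, and r between Mrc2 and Dcn was 0.413. Of 46 called slopes, 27 lost their call there, 13 when the 2 tumors with the most extreme predictor were left out, and 12 with 1 tumor per title number. With 1 tumor per title number, 0 chains were called on Dcn with Mrc2 in the model, and without the 2 most extreme tumors 5 chains were called on Col1a1. A pseudocount of 0.1, a minimum mean FPKM of 5, rescaling without short non-coding RNA genes and Fos as a covariate ended no call, no filter ended 2 and limma without trend 1, and no called slope turned its direction in any of these settings.

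Leaving out 1 tumor at a time, the number of chains called was 4 to 9 on Mrc2, 9 to 13 on Dcn, 0 on Mrc2 with Dcn in the model, 1 to 8 on Dcn with Mrc2 in the model, 5 to 9 on Col1a1, 1 on Col4a1, 9 to 12 on Col6a1 and 0 on Col17a1. The low ends came without X738T or X92T for Mrc2, without X1310T2 for Dcn with Mrc2, and without X370T for Col1a1. Over the same runs r between Mrc2 and Dcn was 0.628 to 0.735. Col5a3 on Col1a1 lost its call in 18 of 23 such runs and Col6a2 on Dcn with Mrc2 in 12. Over all genes, the fits as reported called 140 rising and 112 falling on Mrc2 and 396 and 661 on Dcn, and with Fos as a covariate these were 295 and 179 on Mrc2 and 726 and 713 on Dcn. Without the 4 tumors lowest in Epcam they were 0 and 0 on Mrc2, 130 and 65 on Dcn, and 26 and 1 on Col6a1, where all tumors gave 443 and 395. With the title number as a replicate block, an alternative chosen after seeing the data in which 4 numbers hold 2 tumors each, 7 chains were called on Mrc2, 11 on Dcn, 7 on Dcn with Mrc2 in the model and 10 on Col6a1, where Col12a1 lost its call, and no other called slope lost its call. Of all genes 82 rose and 64 fell on Mrc2 there. The correlation estimated between tumors sharing a number was 0.373 in the fit on Mrc2, 0.393 on Dcn and 0.543 on Col17a1, the highest of the fits. The fits as reported took all tumors as independent. The labels do not say what the number marks. Precision is limited by the 23 tumors, since the depth behind the values is unknown.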
